A study of Zea mays with 6 samples.

Results

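The report covers 4 maize genes of central glycolysis: gpc4 (GRMZM2G176307) and GAPC1 (GRMZM2G046804), which encode glyceraldehyde-3-phosphate dehydrogenase (GAPDH), and a gene annotated as enolase (GRMZM2G009030) and eno2 (GRMZM2G048371), which encode enolase. They were taken by gene identifier from the probe annotation of the arrays and hold 14 of 59756 transcripts and 33 of 139000 probes, from 4 of 39219 genes. GAPC1 is the gene that the study used as a reference in its PCR measurements. The genes were proposed with their values between the groups already known, so their fold differences, intervals and counts are given as a description and are used to support nothing. Roots of maize PR33T56, a hybrid by the labels and an inbred line by the study's methods, grown in nutrient solution were compared on 6 single-colour NimbleGen arrays. The Fe-deficient group (3 arrays) came from plants aged 19 d that had no Fe-EDTA during the last 7 d. The Fe-sufficient group (3 arrays) came from plants of the same age that received 100 µM Fe-EDTA during those 7 d. Plants of both groups had been grown without Fe before that, so the Fe-sufficient plants were resupplied, and RNA of each sample came from the pooled roots of 6 plants.

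GAPDH oxidises glyceraldehyde-3-phosphate and stores the energy released in NADH and in a phosphate bond, and enolase, a few steps later, removes water from phosphoglycerate to give phosphoenolpyruvate. Phosphoenolpyruvate feeds pyruvate formation and, through PEP carboxylase, the synthesis of organic acids. Both enzymes are encoded by small gene families in maize; of the cytosolic GAPDH genes, gpc3 and gpc4 are known to be induced by lack of oxygen, whereas eno1 is the enolase gene known for that response and eno2 is not.

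The groups carry the names given by the labels, which the calls of Fe-responsive genes did not bear out. The study tabulates 28 of the genes measured here as Fe-responsive, with 52 transcripts on the array. Of these, 0 were called between the groups by limma (lowest adjusted p = 0.445). An unadjusted p of at most 0.05 with a change of at least 1.5-fold was found for 5, whose directions are not given here. The same held for 5.34% of all transcripts and for 4.84% of all genes by their brightest transcript. The gene ys1, for the transporter that takes up Fe bound to phytosiderophores and is known to be induced by Fe deficiency, read 11.08, 10.9 and 10.86 on Fe-deficient arrays, against 11.34, 11.81 and 11.11 on Fe-sufficient arrays on the log2 scale. The groups did not overlap, as was the case for 17.3% of all genes by their brightest transcript (7.52% lower in Fe-deficient roots). The direction, 0.723-fold, was opposite to the one known for the gene, although the difference did not pass the test (limma, adjusted p = 0.491). In its PCR measurements the study found ys1 raised by Fe deficiency. It is 1 gene that was not called, shown without the directions of the 5 above, and was not taken to decide whether the labels hold. Whether each array holds the RNA its label names was not tested and stays in doubt, and every difference below is one between arrays so labelled. The count of calls alone was not taken to decide it. In simulated arrays limma recovered 74% of 8-fold, 66% of 4-fold, 6% of 2-fold and 0% of 1.5-fold changes. Most changes that the study tabulates for these genes are below 4-fold, and a few are above 8-fold. All 6 root marker genes, ys1 among them, were above background on every array, with summed intensities of 30068 to 42634 on Fe-deficient and 32473 to 39884 on Fe-sufficient arrays. Of 9 leaf markers, 6 were above background on every array (summed intensity 29253 to 37023 on Fe-deficient and 21932 to 30456 on Fe-sufficient arrays), and rbcS and rca1 were above it on none. Most of that sum came from Ppdk1, also a gene of the pathway described below; the other 8 summed to 5462 to 6477 on Fe-deficient and 5030 to 13003 on Fe-sufficient arrays, and of the 9 leaf markers 4 were higher and 5 lower in Fe-deficient roots, with 0 called. The 7 seed storage genes summed to 1135 to 1409 on Fe-deficient and 1034 to 1329 on Fe-sufficient arrays, with dzs18 and ole1 above background on none. The part of these marker levels in the values below was not tested. All arrays lay on 1 slide, with the Fe-deficient samples at positions 10, 11 and 12 and the Fe-sufficient samples at positions 7, 8 and 9, so slide position and group cannot be told apart. In pooled roots, less RNA per cell and fewer cells of a type cannot be told apart either.

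All 14 transcripts of the 4 genes were above background on every array, meaning that at least 1 probe was brighter than the 95th percentile of the random-sequence probes of that array. Of the 14, 0 were called at the thresholds of the study (limma, adjusted p of at most 0.05 and a change of at least 1.5-fold), which 0.0853% of all transcripts passed (0.0703% as higher and 0.0151% as lower in Fe-deficient roots). Only 1 (gpc4 transcript 1) had an unadjusted p of at most 0.05 with that change, as did 5.34% of all transcripts. Higher means in Fe-deficient roots were found for 9 transcripts and lower means for 5. In 2 of the 14, gpc4 transcript 1 and eno2 transcript 1, the groups did not overlap, and both were higher in Fe-deficient roots; over all transcripts the groups did not overlap in 17.4%, with 9.75% higher and 7.65% lower. Of the 33 probes, 24 were higher and 9 lower in Fe-deficient roots, and in 7 the groups did not overlap (6 higher), against 16.9% of all probes (9.26% higher and 7.6% lower). Since the genes were chosen on this contrast, nothing is read from these shares. These counts belong to the fit used here, which called 51 transcripts in all. At the same thresholds the study reported far more transcripts as changed, so its calls were not reproduced here. Among them it named a transcript for a GAPDH as up-regulated under Fe starvation.

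gpc4 was the gene with the widest difference among the 4, and the wider one was in 1 of its 2 transcripts. Transcript 1 had log2 intensities of 13.62, 14.07 and 13.38 on the Fe-deficient arrays, against 12.15, 12.76 and 12.46 on the Fe-sufficient arrays. Every Fe-deficient array was above every Fe-sufficient array, and the second Fe-deficient array was the highest. The means were 13.69 ± 0.35 in Fe-deficient and 12.46 ± 0.31 in Fe-sufficient roots (SD, n = 3 each), a 2.35-fold difference with a 95% interval of 1.6 to 3.47. The size of that log2 difference, 1.24, was at the 98.5th percentile of the sizes over all transcripts, where a size of 0.23 was at the 56.7th. With the sign kept, the median difference of all transcripts was 0.015.

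Transcript 2 of gpc4 did not follow to the same extent. Its log2 intensities were 13.08, 13.37 and 13.0 on the Fe-deficient arrays, against 12.97, 13.04 and 12.76 on the Fe-sufficient arrays, and the groups overlapped. The fold difference was 1.17, with an interval of 0.897 to 1.52 that included no change. Over the 6 arrays transcripts 1 and 2 had nearly the same mean intensity (13.07 and 13.04), so that the choice of the brightest transcript to stand for gpc4 rested on a narrow margin. Within each array, transcript 1 minus transcript 2 was 0.54, 0.7 and 0.39 in Fe-deficient roots and -0.82, -0.28 and -0.3 in Fe-sufficient roots. The groups did not overlap, and the ratio differed between them by 1.01 on the log2 scale (SE 0.2), or 2.01-fold.

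The probes of gpc4 divided in the same way. The probe at position 1623 of transcript 1 read 18062, 22401 and 13569 in Fe-deficient roots, against 7529, 10695 and 8435 in Fe-sufficient roots, a difference of 2.01-fold. That at position 1799 read 8767, 13219 and 8411 in Fe-deficient roots, against 2732, 4499 and 3763 in Fe-sufficient roots, a difference of 2.76-fold. Both probes of transcript 1 were without overlap, and their log2 differences were 1.01 (SE 0.26) and 1.47 (SE 0.3). The probe at position 1217 of transcript 2 read 34286, 40853 and 32770 in Fe-deficient roots, against 33584, 30590 and 26648 in Fe-sufficient roots (1.19-fold), and that at position 1 read 2196, 2748 and 2035 in Fe-deficient roots, against 1922, 2313 and 1813 in Fe-sufficient roots (1.15-fold). The groups overlapped in both probes of transcript 2. Positions are those of the probe annotation, counted along each transcript model. The files carry no probe sequences, so it was not tested whether a probe also matches another gene of the family.

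**Figure D1:**
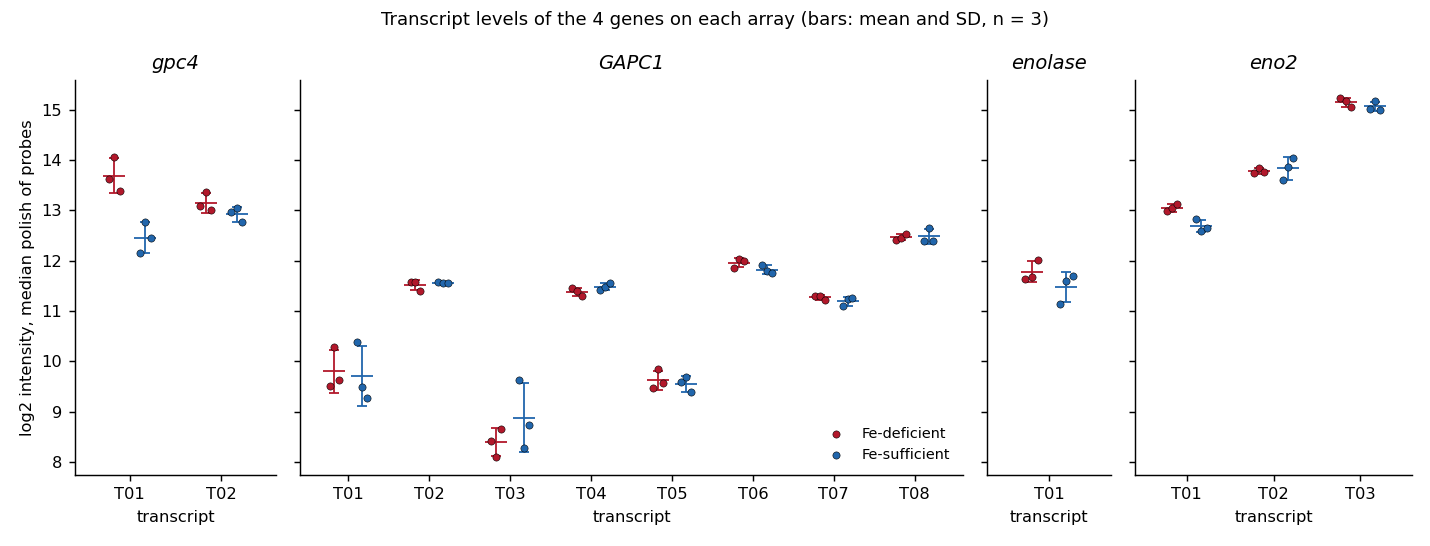
Log2 intensity of each of the 14 transcripts of gpc4, GAPC1, enolase and eno2 on every array, Fe-deficient left of Fe-sufficient, with points for arrays and bars for group means and SDs (n = 3). The Fe-deficient arrays lie above all Fe-sufficient arrays only in gpc4 transcript 1 (means 13.69 and 12.46) and eno2 transcript 1 (means 13.05 and 12.69).

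GAPC1, the second cytosolic GAPDH gene, was close to level between the groups in most of its 8 transcripts. Its brightest, transcript 8, had log2 intensities of 12.42, 12.46 and 12.54 in Fe-deficient roots, against 12.4, 12.66 and 12.4 in Fe-sufficient roots. Both the highest and the lowest array were Fe-sufficient. The means were 12.47 ± 0.06 in Fe-deficient and 12.49 ± 0.15 in Fe-sufficient roots (SD, n = 3 each), a fold difference of 0.989 with a 95% interval of 0.786 to 1.25. The 8 transcripts ranged from 0.717-fold to 1.1-fold, 4 higher and 4 lower, and every interval included no change.

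The spread between arrays set the GAPC1 transcripts apart from each other. The SD within groups was at the 2.7th, 3.1st, 3.2nd and 5.5th percentile of all transcripts for transcripts 2, 4, 7 and 6, and at the 11.3rd for transcript 8. Transcript 2 read 11.57, 11.58 and 11.4 in Fe-deficient roots, against 11.57, 11.56 and 11.55 in Fe-sufficient roots on the log2 scale. Transcripts 1 and 3 stood at the other end, with SDs at the 89.6th and 89.9th percentile. Transcript 1 read 9.5, 10.29 and 9.62 in Fe-deficient roots, against 10.39, 9.48 and 9.27 in Fe-sufficient roots. Transcript 3 read 8.42, 8.1 and 8.65 in Fe-deficient roots, against 9.62, 8.28 and 8.73 in Fe-sufficient roots. The second Fe-deficient and the first Fe-sufficient array were thus the highest for transcript 1, which was the case for 8.29% of all transcripts on the array, and the first Fe-sufficient array stood above the other 5 for transcript 3.

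At probe level GAPC1 held 2 classes of signal. The 5 probes with a mean intensity above 10000, at positions 979 to 1701 of their transcripts, read between 13581 and 50137, and all 5 were slightly higher in Fe-deficient roots, by 1.01-fold to 1.19-fold. The brightest of them, at position 979 of transcript 8, read 49173, 50137 and 46775 in Fe-deficient roots, against 48061, 43031 and 43591 in Fe-sufficient roots; its top value was 84.4% of the highest intensity of the arrays. The probe at position 1283 of transcript 6 was the only one of the 5 without overlap, with 18161, 18146 and 19399 in Fe-deficient roots, against 15488, 14422 and 16813 in Fe-sufficient roots. The other 14 probes read between 178 and 1668, 7 of them higher and 7 lower in Fe-deficient roots, by 0.686-fold to 1.26-fold. Of the 8 transcripts, 5 were summarised from 1 bright and 1 dim probe and 3 from dim probes alone, so their levels were not ranked. In 1 dim probe, at position 178 of transcript 4, the groups did not overlap, and it was lower in Fe-deficient roots (462, 418 and 348) than in Fe-sufficient roots (480, 529 and 506).

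**Figure D2:**
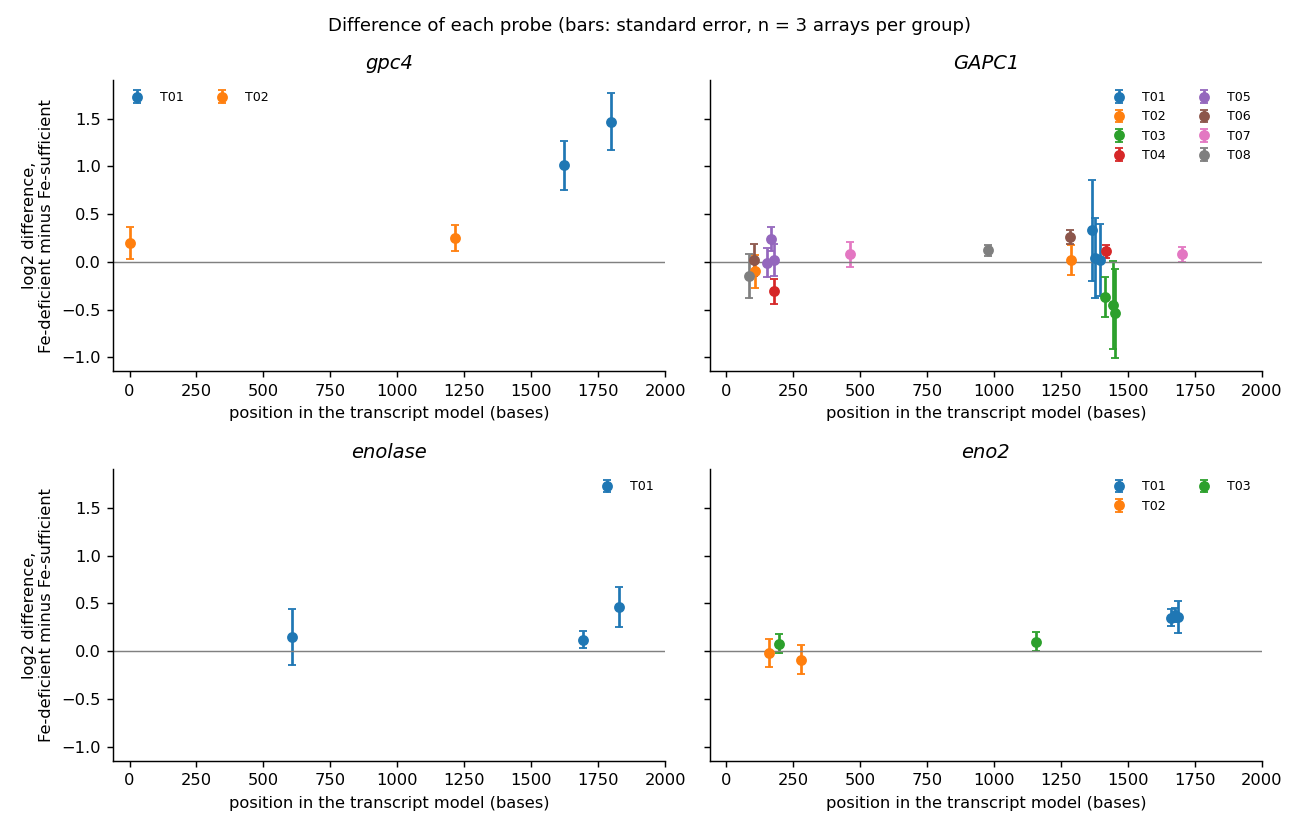
Log2 difference, Fe-deficient minus Fe-sufficient, of each of the 33 probes against its position along the transcript model, with 1 panel per gene, 1 colour per transcript and bars for the standard error from 3 arrays per group. The 2 probes of gpc4 transcript 1 (1.01 and 1.47) lie above the other probes of the 4 genes.

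Set against GAPC1 on the same array, gpc4 differed between the groups. The ratio of gpc4 transcript 1 to GAPC1 transcript 8, as a log2 difference within each array, was 1.2, 1.62 and 0.85 in Fe-deficient roots, against -0.25, 0.1 and 0.06 in Fe-sufficient roots. All Fe-deficient values lay above all Fe-sufficient ones, and the ratio differed by 2.38-fold (1.25 on the log2 scale, SE 0.25). With gpc4 transcript 2 the same ratio was 0.66, 0.92 and 0.46 in Fe-deficient roots, against 0.57, 0.38 and 0.36 in Fe-sufficient roots, which overlapped and differed by 1.18-fold (0.24 on the log2 scale, SE 0.15). These are changes of a ratio; because probes differ in how strongly they bind, the level of one gene was not set against that of the other.

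TUA (GRMZM2G152466), the other PCR reference gene of the study and an α-tubulin gene, gave a second point of reference. Its log2 intensities were 15.04, 15.05 and 15.18 in Fe-deficient roots, against 15.24, 15.26 and 15.28 in Fe-sufficient roots, a fold difference of 0.887 with a 95% interval of 0.721 to 1.09. Every Fe-deficient array was below every Fe-sufficient array, so that a ratio to TUA is raised in Fe-deficient roots. The ratio of GAPC1 transcript 8 to TUA differed by 1.11-fold (0.16 on the log2 scale, SE 0.09) with overlap of the groups, and that of gpc4 transcript 1 to TUA by 2.65-fold (1.41 on the log2 scale, SE 0.29) without overlap. Both ratios of gpc4 hold the same gpc4 values and are no further evidence of its difference.

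The enolase gene GRMZM2G009030 was represented by 1 transcript with 3 probes. Its log2 intensities were 11.64, 11.68 and 12.02 in Fe-deficient roots, against 11.14, 11.59 and 11.69 in Fe-sufficient roots. The groups overlapped, since the third Fe-sufficient array was above the first Fe-deficient array. The means were 11.78 ± 0.21 in Fe-deficient and 11.47 ± 0.3 in Fe-sufficient roots (SD, n = 3 each), a 1.23-fold difference with a 95% interval of 0.891 to 1.71. All 3 probes were higher in Fe-deficient roots, by 1.09-fold to 1.38-fold. Of these, the probe at position 1828 was without overlap, with 2239, 2190 and 3069 in Fe-deficient roots, against 1501, 1794 and 2132 in Fe-sufficient roots.

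The 3 transcripts of eno2 differed in what they showed. Transcript 1 had log2 intensities of 12.98, 13.04 and 13.13 in Fe-deficient roots, against 12.83, 12.59 and 12.65 in Fe-sufficient roots, without overlap. Its means of 13.05 ± 0.07 in Fe-deficient and 12.69 ± 0.13 in Fe-sufficient roots (SD, n = 3 each) differed by 1.29-fold, with a 95% interval of 1.03 to 1.61. The brightest, transcript 3, read 15.23, 15.17 and 15.05 in Fe-deficient roots, against 15.02, 15.18 and 15.0 in Fe-sufficient roots. Here the groups overlapped, and the difference was 1.06-fold with an interval of 0.852 to 1.33. Transcript 2, with 13.75, 13.85 and 13.76 in Fe-deficient roots, against 13.6, 13.87 and 14.05 in Fe-sufficient roots, overlapped as well, at 0.963-fold with an interval of 0.743 to 1.25.

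The 3 probes of eno2 transcript 1 lie next to each other, at positions 1661, 1675 and 1686, and differed by 1.28-fold, 1.3-fold and 1.29-fold. The first read 11245, 10365 and 11805 in Fe-deficient roots, against 9613, 8117 and 8450 in Fe-sufficient roots. It and the second were without overlap, and the third overlapped. Within each array, eno2 transcript 1 minus transcript 3 differed between the groups by 0.27 on the log2 scale (SE 0.15), with overlap. That value was larger than the SD between arrays (0.16 in Fe-deficient and 0.2 in Fe-sufficient roots), but the arrays of the 2 groups were not fully separated by it.

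Between the enolase genes no difference in response was found with the brightest transcript of eno2. The log2 ratio of eno2 transcript 3 to enolase was 3.59, 3.49 and 3.03 in Fe-deficient roots, against 3.88, 3.58 and 3.31 in Fe-sufficient roots, a change of -0.22 (SE 0.24, 0.86-fold) with overlap. With eno2 transcript 1 the change was 0.06 (SE 0.25, 1.04-fold), again with overlap. With eno2 transcript 2 it was -0.36 (SE 0.14, 0.78-fold), and the groups did not overlap. These ratios do not show that both genes respond alike, since the standard errors leave room for differences of the size seen.

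**Figure D3:**
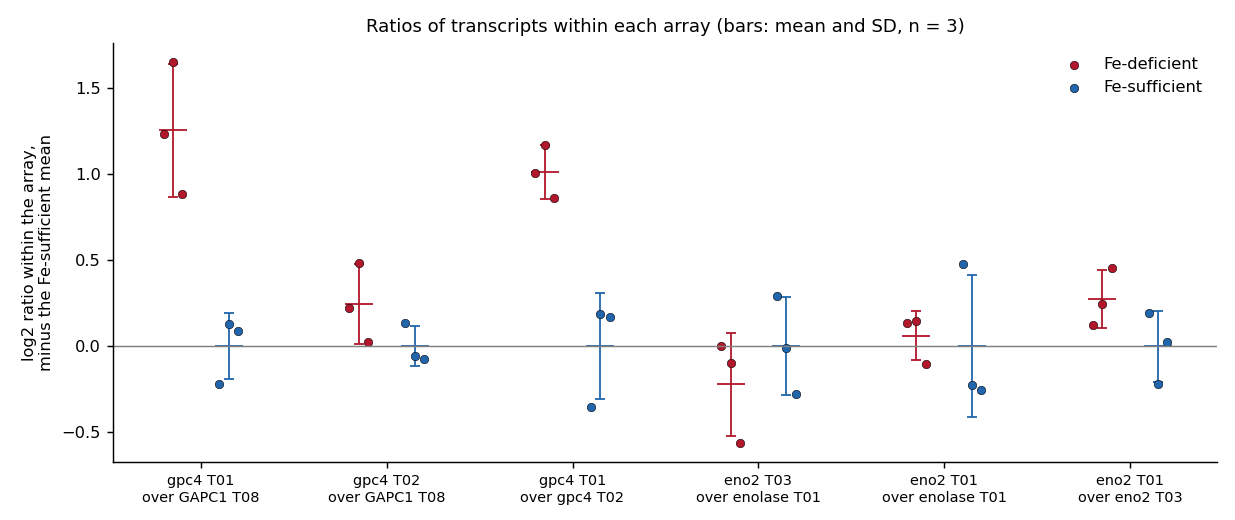
Log2 ratios within each array, Fe-deficient left of Fe-sufficient, for pairs of transcripts, with points for arrays and bars for group means and SDs (n = 3). Each ratio is drawn relative to its own Fe-sufficient mean, at 0, and the Fe-deficient mean of gpc4 transcript 1 over GAPC1 transcript 8 lies 1.25 above it, whereas eno2 transcript 3 over enolase overlaps.

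The other measured GAPDH genes were tested in the fit over all transcripts, each by its brightest transcript. None of the 6 was called, 0 had an unadjusted p of at most 0.05, and their median log2 difference was 0.07, against 0.013 over the brightest transcripts of all genes. gpc3, named above with gpc4 for its response to lack of oxygen, read 14.26, 14.45 and 14.2 in Fe-deficient roots, against 14.11, 14.17 and 14.12 in Fe-sufficient roots. The groups did not overlap, but the difference of 1.12-fold (95% interval 0.901 to 1.4) did not pass the test (limma, adjusted p = 0.653). gpc2, another cytosolic GAPDH gene, differed by 1.04-fold (interval 0.815 to 1.32). gpn1, which encodes the non-phosphorylating GAPDH of the cytosol, read 11.82, 13.27 and 11.76 in Fe-deficient roots, against 13.05, 12.33 and 12.11 in Fe-sufficient roots. Its 2 highest arrays were the second Fe-deficient and the first Fe-sufficient one, as for GAPC1 transcript 1. Of the plastid forms, GAPCP differed by 1.07-fold and gpa1 by 0.885-fold, and gpb1, a subunit of the photosynthetic enzyme, was above background on no array.

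The remaining enolase gene, eno1, read 14.13, 14.24 and 14.09 in Fe-deficient roots, against 14.17, 13.94 and 13.88 in Fe-sufficient roots. The 1.11-fold difference (95% interval 0.88 to 1.4) did not pass the test (limma, adjusted p = 0.699).

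Around these steps, from sucrose cleavage to fermentation, 33 genes of the array other than the 4 were matched by symbol, the GAPDH and enolase genes above included, 30 of them above background on every array and 2 on none. None of the 33 was called in either direction by limma (lowest adjusted p among them = 0.433), where 0.079% of all genes were called. An unadjusted p of at most 0.05 was found for 4 of the 33, against 9.73% of all genes, and 2 of the 4, frk1 and pep4, also differed by at least 1.5-fold before rounding, as 4.84% of all genes did. The groups did not overlap in 8 of the 33 genes (24.2%), 4 higher and 4 lower in Fe-deficient roots, against 17.3% of all genes (9.74% higher and 7.52% lower). The median log2 difference of the 33 was 0.09, and their folds lay between 0.569 and 1.93.

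The fructokinase gene frk1 read 10.87, 11.8 and 10.84 in Fe-deficient roots, against 10.65, 10.12 and 9.89 in Fe-sufficient roots, 1.93-fold with an interval of 1.15 to 3.25 (limma, adjusted p = 0.455). phi1, a glucose-phosphate isomerase gene, was next in that group of genes, at 1.33-fold (adjusted p = 0.495). The PEP carboxylase gene pep4, which uses the product of enolase, read 13.04, 12.88 and 13.41 in Fe-deficient roots, against 13.87, 14.09 and 13.51 in Fe-sufficient roots, 0.61-fold with an interval of 0.431 to 0.864 (limma, adjusted p = 0.433). The groups overlapped in neither frk1 nor pep4, and neither passed the test. Another PEP carboxylase gene, PPC1, chosen after its values were seen, lay in the other direction, with 11.45, 11.66 and 11.2 in Fe-deficient roots, against 9.99, 11.6 and 10.74 in Fe-sufficient roots, 1.58-fold with an interval of 0.838 to 2.98 (limma, adjusted p = 0.559). PPC1, under the name pep1, is also counted among the leaf markers above. Ppdk1, for pyruvate phosphate dikinase, differed by 1.5-fold (interval 1.09 to 2.05, limma, adjusted p = 0.453).

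In the other groups of genes the 2 smallest p-values belonged to the aldolase gene ald1, also called aldolase1 (1.06-fold, adjusted p = 0.825) and the phosphofructokinase gene pfk1 (0.968-fold, adjusted p = 0.936), to adh2 for alcohol dehydrogenase (1.36-fold) and rf2c for aldehyde dehydrogenase (0.631-fold, adjusted p = 0.492 each), and to the cell wall invertase gene incw1 (1.5-fold, adjusted p = 0.452) and the soluble invertase gene ivr2 (0.569-fold, adjusted p = 0.495), all by limma. For triose phosphate isomerase and phosphoglycerate kinase, the neighbours of GAPDH in the pathway, no gene of the array was matched by symbol, and further genes of the pathway come from the study's list alone.

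The study's own list held 6 entries of glycolysis and fermentation other than the 4 genes, of which eno1 and pdc3 are also among the 33. It was chosen on these arrays and is no independent evidence of a direction. None of the 6 was called (limma, lowest adjusted p = 0.412), and 2 had an unadjusted p of at most 0.05. The triose phosphate isomerase gene GRMZM2G146206, which supplies the substrate of GAPDH, read 12.43, 13.39 and 12.48 in Fe-deficient roots, against 11.84, 11.76 and 11.71 in Fe-sufficient roots. Without overlap, it differed by 1.99-fold (95% interval 1.29 to 3.09, limma, adjusted p = 0.412). The phosphofructokinase gene GRMZM2G132069 differed in the other direction, at 0.735-fold and without overlap (adjusted p = 0.463). The study's text names phosphofructokinase, aldehyde dehydrogenase, pyruvate decarboxylase and lactate/malate dehydrogenase, without their genes, among the transcripts raised by Fe starvation. The pyruvate decarboxylase gene pdc3 (1.67-fold, adjusted p = 0.533) and the lactate dehydrogenase gene GRMZM2G173192 (1.38-fold, adjusted p = 0.594) overlapped, and eno1 is given above. The aldehyde dehydrogenase gene GRMZM2G169458 was above background on 0 of 3 Fe-deficient and 3 of 3 Fe-sufficient arrays, so no fold is given.

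**Figure D4:**
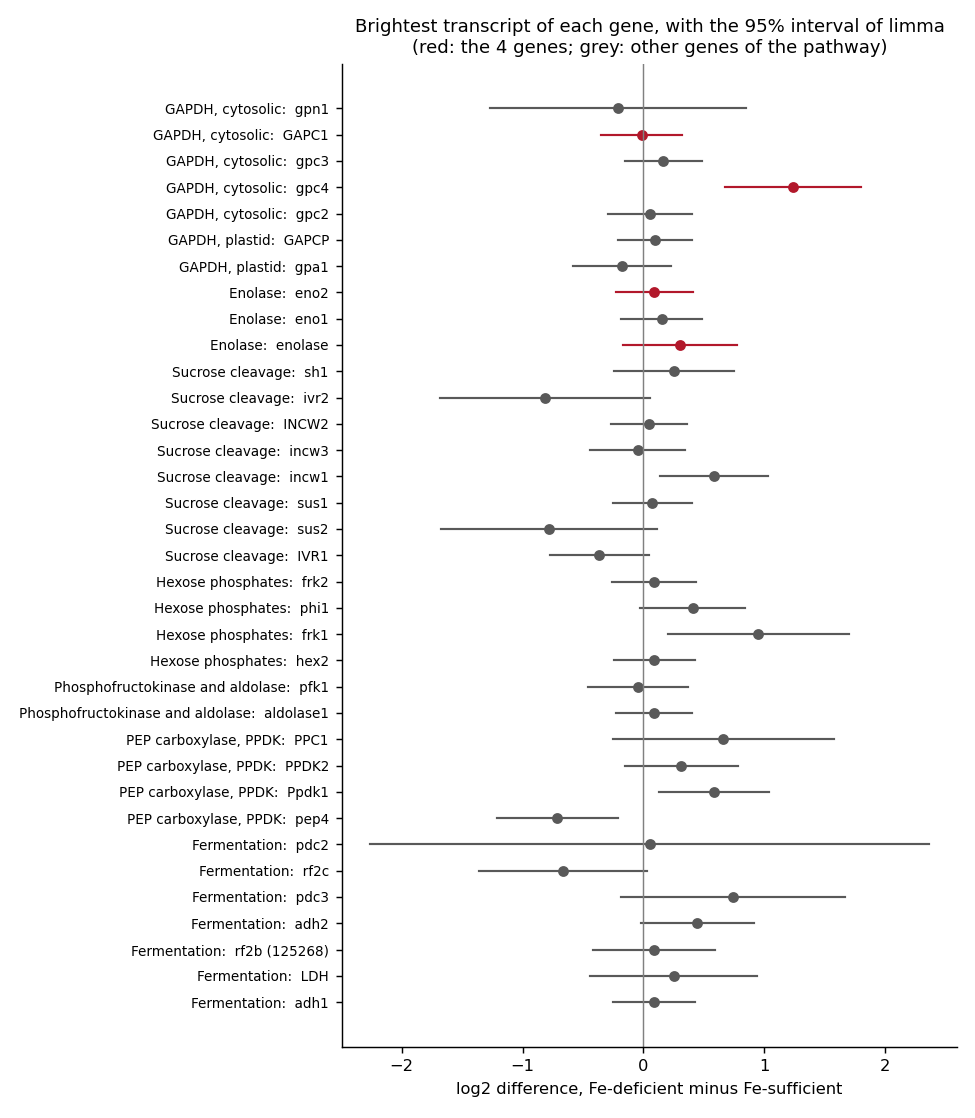
Log2 difference, Fe-deficient minus Fe-sufficient, with 95% intervals, for the brightest transcript of each gene matched by symbol in sucrose cleavage, glycolysis and fermentation and, in red, of the 4 genes; gpb1 and a second rf2b gene, above background on no array, are not drawn. gpc4 is at 1.24, and the genes other than the 4 lie between 0.569-fold and 1.93-fold.

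The profile over the 6 arrays was used to find the genes that most resembled each of the 4, among 2107 genes with an informative name that were above background on every array. Likeness was the root mean square difference between profiles after centring, on the log2 scale, and is a description that includes the difference between the groups. For gpc4 transcript 1 the closest were CKX8 (0.174), a cytokinin oxidase gene, gln1 (0.228), a glutamine synthetase gene, and NHX5 (0.244), a sodium/proton exchanger gene, with fold differences of 2.27, 2.1 and 2.18. No gene came within 0.1 of gpc4, and the median over all genes compared was 0.691.

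GAPC1 and eno2 lay among many genes with flat profiles. Within 0.1 of GAPC1 transcript 8 were 77 genes, led by paa (0.0478), the translation initiation factor gene eif3 (0.0521) and the MAP kinase gene mpk6 (0.0556). Within 0.1 of eno2 transcript 3 were 97 genes, and the closest were ald1 (0.0159), the aldolase gene named above, ss2 (0.0268), the sucrose synthase gene also called sus1, and CNR11 (0.0332), a cell number regulator gene. ald1, which acts earlier in glycolysis, differed by 1.06-fold, as eno2 transcript 3 did. For enolase 6 genes came within 0.1, led by CPN60II (0.0449), a mitochondrial chaperonin gene, iso3 (0.0827), an isoamylase-type starch debranching gene, and LIM12 (0.0904), a LIM domain gene.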

How the data were processed

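Root RNA was hybridised to single-colour arrays (3 Fe-deficient, 3 Fe-sufficient, stated to be independent cultivations). The deposited values are linear probe intensities that the authors had brought to a common distribution by quantile normalization; their methods name RMA. A background step is not given in the sources used. The intensities were put on the log2 scale, summarised per transcript by median polish and compared by limma 3.58.1 (lmFit, then eBayes; R 4.3.3), without covariates. P-values were adjusted (Benjamini-Hochberg) over 59756 transcripts. A gene is represented by its transcript with the highest mean over 6 arrays. Percentiles and background shares are over all transcripts or genes.

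Names came from a RefSeq gene table (Zm-B73-REFERENCE-NAM-5.0), used for names only: 18172 genes matched 1 entry, and 2542 had an informative name. The genes and lists were chosen with earlier results of these data known. Named were all transcripts of the 4 genes, all other GAPDH and enolase genes, the study's 6 entries, up to 2 genes per pathway list by p-value, and the 3 most similar genes per member; TUA and the markers are checks. In simulated arrays of 59756 transcripts, limma recovered 74% of 8-fold, 66% of 4-fold, 6% of 2-fold and 0% of 1.5-fold changes, and made 5 false calls. Alternatives were another background correction, median scaling, other summaries, array weights, a replicate block, other thresholds and each array left out.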

Additional observations from a re-analysis of the deposited data

How the results depend on the processing

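Over all transcripts, 51 were called (42 higher, 9 lower in Fe-deficient roots). An RMA-type background correction gave 28 (24 higher, 4 lower), array weights 165 (120 higher, 45 lower), the replicate number as a block 0 (0 higher, 0 lower), and unadjusted p-values 3190 (1515 higher, 1675 lower). Leaving out 1 array gave 2 to 1096 calls, 2 to 162 higher and 0 to 934 lower: 2, 22 and 21 without Fe-deficient replicate 1, 2 and 3, and 1096, 3 and 6 without Fe-sufficient replicate 1, 2 and 3. Same-numbered samples did not deviate together (correlations -0.12, -0.00824 and 0.0702). With 3 arrays per group this cannot show whether same-numbered samples came from the same cultivation, and the main fit did not pair them. With unadjusted p-values 1 transcript of the 4 genes and 2 of the 33 pathway genes passed, and 0 under the other settings.

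The log2 difference of gpc4 (1.24) was 0.73 as the mean of its transcripts, 0.66 over all its probes and 0.23 by transcript 2, an alternative chosen after seeing the data. Its ratio to GAPC1 (1.25) was 0.76, 0.63 and 0.24 in the same order. Without 1 array gpc4 was 1.05 to 1.39, its ratio to GAPC1 1.05 to 1.44, GAPC1 -0.06 to 0.07, enolase 0.14 to 0.41, eno2 0.05 to 0.14, eno2 over enolase -0.36 to -0.05, and the pathway median 0.06 to 0.14. Under the remaining settings GAPC1 was between -0.08 and 0.04, so its sign has no meaning. In the simulation, 3 arrays per group seldom called changes of 2-fold.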
